A study of Rattus norvegicus with 8 samples.

Results

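The transcripts described here encode the cytoskeleton of rat liver: actins and the proteins that assemble them, the myosins and tropomyosins of contractile filaments, tubulins, keratins and vimentin, and proteins that tie filaments to membranes and adhesions. They were chosen by gene symbol alone and not by any measured value. A probe set, the group of short probes that an Affymetrix array uses to read 1 transcript, was a member if it carried a single gene symbol that began with Tuba, Tubb, Acta, Actb, Actg, Actn, Arpc, Myh, Myl, Tpm or Krt followed by a digit. The symbols Actb, Vim, Tln1, Vcl, Cfl1, Pfn1, Tmsb4x, Tmsb10, Ezr, Msn and Rdx also qualified. This gave 54 genes, of 4736 with a probe set of a single symbol, read by 89 of the 8740 non-control probe sets on the array. For Vcl, Cfl1, Tmsb10 and Rdx no probe set of their own was analysed here. A further 22 cytoskeletal probe sets carried several symbols and were not counted as members.

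Actin monomers polymerise into filaments that give cells their shape and cortex, and the Arp2/3 complex starts new branches on existing filaments. Non-muscle myosin pulls on these filaments, tropomyosin runs along them, and talin couples them to integrins at adhesion sites. Microtubules, built from pairs of alpha- and beta-tubulin, carry vesicles toward the bile canaliculus in hepatocytes. Keratins 8 and 18 are the keratin pair of hepatocytes, keratin 19 marks bile duct cells, and vimentin belongs to mesenchymal, endothelial and blood-derived cells.

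The livers came from male Fischer 344 rats, labelled with an age of 6 without a unit and fed AIN 76A chow. On days 1, 3 and 5, 4 rats were gavaged with 3H-1,2-dithiole-3-thione (D3T) at a dose of 0.3 mmol per kg body weight, dissolved in saturated sucrose. The other 4, the vehicle group, were gavaged with the sucrose solution alone (0.2 ml). D3T is known as an inducer of detoxification genes through the transcription factor encoded by Nfe2l2. For vehicle replicate 2 the labels name no gavage days. The comparison asks which liver transcripts differ after D3T, with 1 array per rat and RNA from whole liver tissue. The labels number the rats within each group and say nothing of litters or batches.

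Signals are MAS5 intensities, rescaled to a common level, with values below 20.3 raised to that floor. The precision of such values is limited by the number of arrays. Of the hepatocyte markers looked up, all 9 measured genes were among the probe sets tested, and albumin (Alb) read 39143 ± 8877 (SD, n = 4) in vehicle and 53452 ± 8971 after D3T. The ratio of the 3' to the 5' control probe set of beta-actin, a measure of RNA integrity and labelling, ran from 1.45 to 1.59 in vehicle and from 1.17 to 1.47 after D3T. That difference did not pass an exact two-sided permutation test (p = 0.0571, and adjusted p = 0.114 over 8 such measures, where 0.0286 is the smallest p these group sizes allow). The same ratio for Gapdh averaged 1.87 ± 0.212 (SD) over the 4 vehicle arrays and 1.59 ± 0.279 over the 4 D3T arrays (exact permutation p = 0.114, adjusted p = 0.182). All 3 Gapdh control probe sets were higher after D3T without overlap, by 0.24 at the 3' end, 0.35 in the middle and 0.49 at the 5' end on the log2 scale (exact permutation p = 0.0286 and adjusted p = 0.0763 for each). Even at the smallest possible p these 3 did not pass after adjustment. The adjusted test thus could not pass for 1 measure alone, and it does not show that RNA quality was equal. The part of both ratios in the results below was tested only by adding each to the fit.

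A small number of cytoskeletal transcripts differed between the groups. Of the 89 probe sets, 49 for 36 genes were bright enough to be tested, and 6 of them passed a Benjamini-Hochberg adjusted p of 0.05 in limma, a linear model fitted across all probe sets. Those 6 are 12.2% of the members tested, beside 10.7% of all 5244 probe sets tested, so the share lay near the background. The transcripts of Arpc1b (both probe sets), Tln1 and 1 probe set of Myl12a were lower after D3T, 4 probe sets beside 6.48% lower over the array. A probe set of Tubb5 and that of Krt14 were higher, 2 probe sets beside 4.20% higher over the array. The median log2 fold change of the 49 was -0.02, beside 0.02 for all probe sets, with 24 positive and 25 negative. The groups did not overlap for 9 of the 49 (18.4%), beside 19.2% of all probe sets tested: D3T was above vehicle for 3 (7.89% over the array) and below it for 6 (11.3%). Without vehicle replicate 1 or without vehicle replicate 3, 0 members passed in limma, while 12 and 7 had an unadjusted p under 0.05. Leaving out vehicle replicate 2 gave 6 lower and 2 higher, and leaving out each of the other 5 arrays left between 1 (without D3T replicate 4) and 4 passing. With the beta-actin 3'/5' ratio as a covariate 0 members passed and 5 had an unadjusted p under 0.05. The 6 probe sets kept their direction in that fit, with larger SEs. Arpc1b gave -0.86 ± 0.23 and -0.70 ± 0.23, Tln1 -1.62 ± 0.66 and Myl12a -0.51 ± 0.23, while Krt14 gave 0.80 ± 0.42 and Tubb5 0.59 ± 0.24. Because the ratio itself was mostly lower after D3T, this fit cannot fully tell the ratio and D3T apart.

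**Figure D1:**
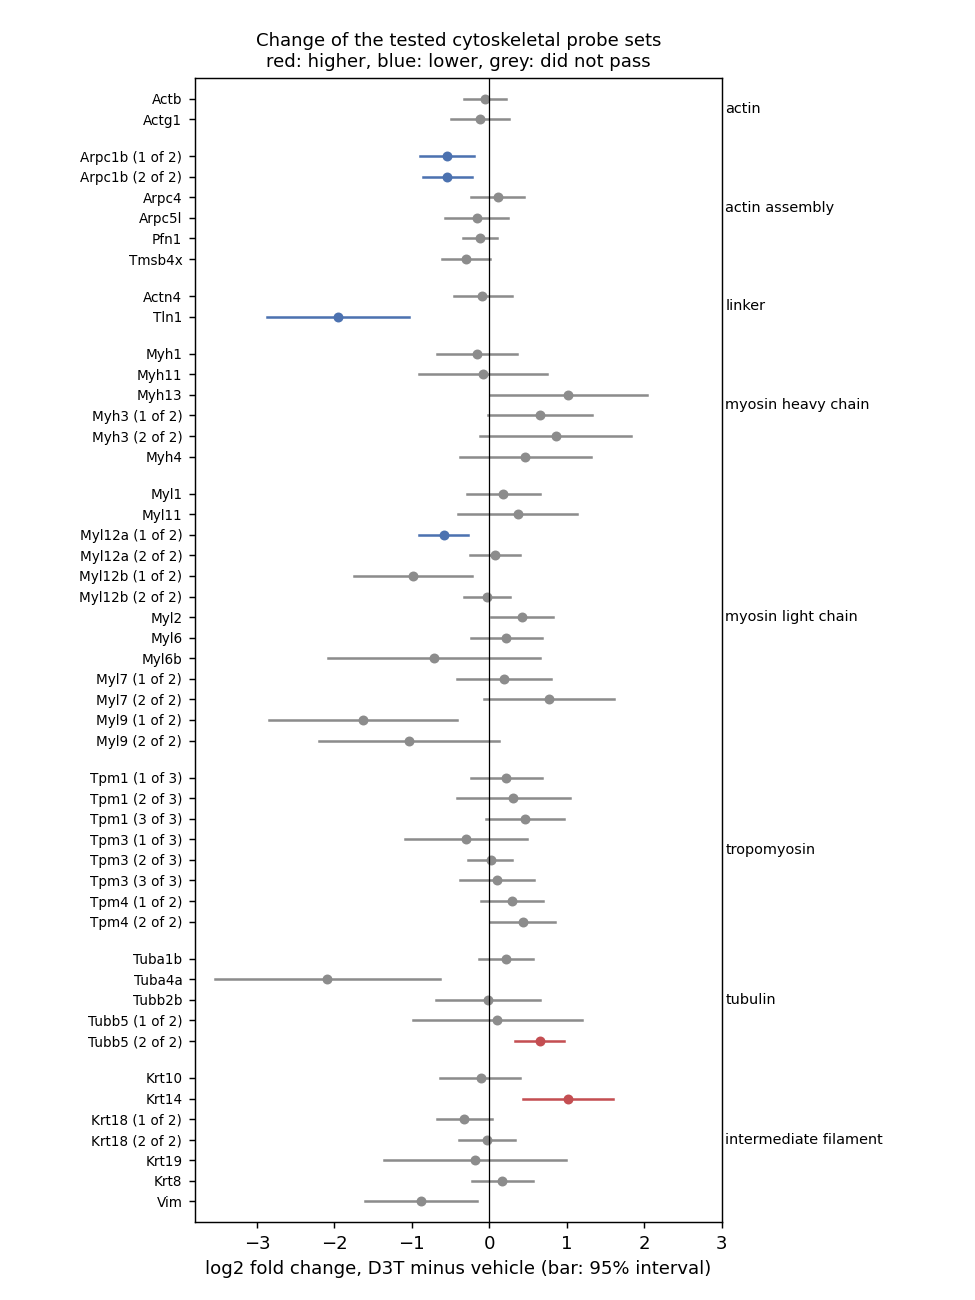
Log2 fold change (D3T minus vehicle, horizontal axis) of the 49 tested cytoskeletal probe sets, grouped by role, with 95% intervals from limma as bars. Genes with several probe sets are numbered within the gene. Only 6 probe sets are coloured as passing, and the points of Tln1 (-1.95) and Tuba4a (-2.09) lie farthest from 0.

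Promoters of members whose transcripts passed are shown because they are the sequence closest to the differences measured, and that of Actg1, a member that did not pass, is set beside them. They come from RefSeq on the rat assembly GRCr8, which held 47 promoter entries for 44 of the 54 genes, each 250 bases before to 50 after a gene's start. Krt14 had no entry in the table. Letters run 5' to 3' on the gene's strand, and capitals mark matches on either strand to 4 motifs. These were the core of the antioxidant response element bound by the Nfe2l2 protein (TGACNNNGC), the CArG box bound by serum response factor, the GC box (GGGCGG) and the TATA box (TATAAA).
Arpc1b (chr12:14609439-14609738, GRCr8, minus strand): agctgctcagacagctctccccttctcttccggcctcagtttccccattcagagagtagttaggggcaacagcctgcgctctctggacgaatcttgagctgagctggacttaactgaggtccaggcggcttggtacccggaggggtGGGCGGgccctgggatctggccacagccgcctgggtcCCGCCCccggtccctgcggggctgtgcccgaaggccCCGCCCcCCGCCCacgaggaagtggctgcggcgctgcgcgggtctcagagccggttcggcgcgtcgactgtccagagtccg
Tln1 (chr5:62613638-62613937, GRCr8, minus strand): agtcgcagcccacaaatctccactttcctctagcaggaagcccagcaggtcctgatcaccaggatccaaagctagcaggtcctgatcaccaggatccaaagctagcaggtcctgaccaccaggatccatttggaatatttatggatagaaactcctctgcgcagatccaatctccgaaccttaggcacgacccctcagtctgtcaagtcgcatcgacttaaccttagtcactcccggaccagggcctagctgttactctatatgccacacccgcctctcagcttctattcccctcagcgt
Myl12a (chr9:118346228-118346527, GRCr8, minus strand): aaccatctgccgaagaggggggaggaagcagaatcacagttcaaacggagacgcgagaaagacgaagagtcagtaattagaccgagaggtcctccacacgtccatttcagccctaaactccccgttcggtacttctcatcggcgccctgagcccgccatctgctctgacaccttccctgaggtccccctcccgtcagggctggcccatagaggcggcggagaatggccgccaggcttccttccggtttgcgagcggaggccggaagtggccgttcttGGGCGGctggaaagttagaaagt
Tubb5 (chr20:2917327-2917626, GRCr8, plus strand): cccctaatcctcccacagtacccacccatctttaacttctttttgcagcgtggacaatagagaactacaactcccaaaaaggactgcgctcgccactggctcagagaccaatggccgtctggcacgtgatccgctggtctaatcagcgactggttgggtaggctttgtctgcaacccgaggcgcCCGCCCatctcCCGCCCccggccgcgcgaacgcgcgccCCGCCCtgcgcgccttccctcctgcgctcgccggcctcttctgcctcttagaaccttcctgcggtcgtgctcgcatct
Actg1 (chr10:106120902-106121201, GRCr8, minus strand): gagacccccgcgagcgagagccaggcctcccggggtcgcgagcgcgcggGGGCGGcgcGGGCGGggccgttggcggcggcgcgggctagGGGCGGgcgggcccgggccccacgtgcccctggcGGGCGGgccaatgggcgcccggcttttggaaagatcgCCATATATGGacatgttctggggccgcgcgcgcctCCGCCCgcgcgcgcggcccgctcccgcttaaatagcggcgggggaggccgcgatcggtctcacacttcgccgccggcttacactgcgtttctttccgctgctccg
In the windows printed, the GC box was the only motif matched for Arpc1b, Myl12a and Tubb5, the window of Tln1 held none of the 4, and that of Actg1 held a CArG box beside GC boxes. Over the 47 member windows, 48.9% held a GC box, beside 33.1% of all 33469 promoter windows in the table, and 23.4% held a TATA box, beside 14.2%. The CArG box, known from actin and muscle genes, was in 8.51% of member windows (Acta1, Actg1, Myh4 and Myl3) and in 1.64% of all. The antioxidant response core was in 12.8% of member windows, namely those of Krt20, Krt36, Myh7, Tpm3 and Tpm4, and in 12.1% of all. None of the 5 genes that passed had a match to it in these windows, Krt14 having no window. A match to letters is a description and not a bound site.

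The cytoplasmic actins, whose monomers make up the filaments, did not pass. Actb, beta-actin, read 8365, 8105, 9999 and 8522 in vehicle replicates 1 to 4 and 7714, 10018, 8723 and 7293 in D3T replicates 1 to 4. The groups overlapped almost entirely, with the brightest vehicle array and the brightest D3T array nearly equal. The log2 fold change of Actb was -0.06 ± 0.13 (SE), with a 95% interval from -0.33 to 0.22 and a limma adjusted p of 0.777. The array's control probe sets for beta-actin, which are no members, gave log2 differences of -0.08 at the 3' end, 0.15 in the middle and 0.14 at the 5' end of the transcript. None of these 3 passed an exact permutation test (p from 0.4 to 0.514). Actg1, gamma-actin, read 2927 ± 550.9 (SD, n = 4) in vehicle and 2688 ± 497.2 after D3T, a log2 fold change of -0.12 with an interval from -0.50 to 0.26. Both actins thus had 0 calls in limma and 0 unadjusted p under 0.05. The probe sets of the muscle actins Acta1, Acta2 and Actg2 were too dim to be tested, and 2 of the 3 for Acta2, the actin of smooth muscle and activated stellate cells, lay at the floor on all 8 arrays. The third one of Acta2 scattered from 20.3 to 104.0 in vehicle and from 31.3 to 113.0 after D3T.

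Among the proteins that assemble actin, Arpc1b fell and the others did not pass. Arpc1b encodes a subunit of the Arp2/3 complex, and the first of its probe sets read 770.1, 946.1, 1000 and 931.6 in vehicle and 658.0, 705.0, 475.0 and 663.2 after D3T. The other read 567.9, 542.3, 715.0 and 566.4 in vehicle and 446.2, 362.6, 401.1 and 428.4 after D3T. On both, every D3T array lay below every vehicle array. The falls were 1.47-fold (log2 fold change -0.55 ± 0.16, limma adjusted p = 0.0492) and 1.46-fold (-0.54 ± 0.15, adjusted p = 0.0406). These probe sets were designed from 1 sequence entry and are not independent of each other. Both calls lay close to the threshold: the first passed in 1 of 8 fits without 1 array, that without D3T replicate 2, and the second in 1 of 8, that without vehicle replicate 2. In the remaining fits without 1 array the adjusted p ran from 0.0596 to 0.131 and from 0.0675 to 0.114, with log2 fold changes from -0.63 to -0.43 over both probe sets. Other subunits of the same complex did not pass: Arpc4 had a log2 fold change of 0.11 (interval -0.23 to 0.45) and Arpc5l -0.16 (-0.57 to 0.24). Profilin (Pfn1), which feeds monomers to growing filaments, read 2782 ± 161.6 (SD, n = 4) and 2558 ± 81.4, a log2 fold change of -0.12 with an interval from -0.34 to 0.10. Thymosin beta 4 (Tmsb4x), which holds monomers in reserve, read 7354, 10178, 7498 and 8243 in vehicle and 5850, 8231, 6666 and 6284 after D3T. The D3T arrays of Tmsb4x were mostly the dimmer ones, but D3T replicate 2 lay among the vehicle arrays, and the change of -0.30 ± 0.14 did not pass (adjusted p = 0.188).

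The linker Tln1 gave the largest fall among the members that passed. Tln1 encodes talin, which couples integrins to actin filaments, and it read 352.2, 166.3, 296.6 and 277.6 in vehicle and 46.2, 163.7, 58.9 and 47.9 after D3T. The groups stood apart by a narrow margin, because vehicle replicate 2 and D3T replicate 2 were nearly equal while the other arrays differed widely. Tln1 was 3.88-fold lower, with a log2 fold change of -1.95 ± 0.41, an interval from -2.87 to -1.04 and a limma adjusted p of 0.0167. Without D3T replicate 2 the log2 fold change was -2.38 (adjusted p = 0.00236). The call was lost without vehicle replicate 1 (-1.82, adjusted p = 0.0558) and without vehicle replicate 3 (-1.90, adjusted p = 0.0548). It was also lost with no filter (adjusted p = 0.0721) and with the beta-actin ratio as covariate (-1.62, adjusted p = 0.310). Alpha-actinin 4 (Actn4), a crosslinker of actin filaments, did not pass, with a log2 fold change of -0.09 and an interval from -0.46 to 0.29. Of the ERM proteins that bind actin to the membrane, Ezr was at the floor on 6 of 8 arrays and the Msn probe sets never rose above 86.0, so none was tested.

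The myosin light chains held 1 call among 13 tested probe sets. Myl12a encodes a regulatory light chain of non-muscle myosin, and one of its probe sets read 1098, 872.8, 1201 and 1228 in vehicle and 658.4, 809.4, 749.5 and 684.7 after D3T. All 4 D3T arrays lay below the vehicle arrays, with vehicle replicate 2 the nearest to them. This probe set of Myl12a fell 1.51-fold (-0.59 ± 0.14 on the log2 scale, limma adjusted p = 0.0281). The other probe set of Myl12a gave 0.07 (interval -0.25 to 0.40) and did not pass. The log2 ratio of the 2 probe sets changed by -0.67 from vehicle to D3T (exact two-sided permutation p = 0.0571, adjusted p = 0.114 over 2 such pairs), so the disagreement did not pass a test of its own. The call of Myl12a was lost in 5 of 8 fits without 1 array, those without vehicle replicates 1 (adjusted p = 0.0676), 3 (0.0855) and 4 (0.0759) and without D3T replicates 1 (0.0768) and 4 (0.0725). With quantile normalization it was 0.0526 and with no filter 0.0549.

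For Myl12b, the close relative of Myl12a, one probe set gave -0.98 ± 0.35 (adjusted p = 0.093), with all D3T arrays below all vehicle arrays, and the other -0.03 ± 0.13. With no intensity trend in the fit, the first of these Myl12b probe sets passed (adjusted p = 0.0362). It averaged 93.0 in vehicle and 47.5 after D3T, the latter below 60.7, the geometric mean at the filter. The vehicle arrays thus brought this Myl12b probe set into the test. Myl9, the regulatory light chain of smooth muscle, read 156.7, 37.2, 195.9 and 150.4 in vehicle and 60.7, 25.6, 42.5 and 28.4 after D3T on one probe set. Vehicle replicate 2 lay among the D3T arrays there, and the log2 fold change of -1.63 ± 0.55 did not pass (adjusted p = 0.0827). This probe set of Myl9 passed in 1 of 5 fits without 1 array, that without vehicle replicate 2 (-2.17, adjusted p = 0.0128). The other fits that tested it gave an adjusted p from 0.0954 to 0.167. When any other vehicle array was left out, this probe set was too dim to be tested. It averaged 135.1 in vehicle and 39.3 after D3T, the latter below 60.7, so the vehicle arrays brought it into the test. The other probe set of Myl9 read from 72.6 to 335.2 in vehicle and from 59.1 to 147.1 after D3T, a change of -1.04 ± 0.53 (adjusted p = 0.215). Myl6, an essential light chain of non-muscle myosin, gave 0.22 with an interval from -0.24 to 0.68, and its relative Myl6b -0.71 with an interval from -2.08 to 0.66. The Myl6 probe set averaged 362.2 in vehicle. Brighter probe sets that share Myl6 with other symbols, and so are no members, gave -0.11, -0.15, -0.31 and -0.03. None of those passed, and the first averaged 12865 in vehicle. The interval of that at -0.31 ran from -0.60 to -0.02 (limma adjusted p = 0.148). Probe sets named for the light chains of striated muscle, Myl1, Myl2, Myl7 and Myl11, gave positive changes from 0.18 to 0.77, and none passed.

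Of the 18 probe sets for myosin heavy chains, all of muscle forms, 6 were tested and 0 passed in limma, with 1 unadjusted p under 0.05 (Myh13). Myh13 averaged 52.2 in vehicle, with replicate 3 at the floor, and 94.1 after D3T. The vehicle mean lay below 60.7, the geometric mean at the filter, so the D3T arrays brought Myh13 into the test. The non-muscle heavy chain Myh9 is no member and is given below with the probe sets of several symbols. Myh3, the embryonic skeletal heavy chain, had 5 probe sets that did not read alike. One of them read 597.8, 322.5, 416.8 and 119.1 in vehicle and 816.0, 362.3, 477.8 and 732.4 after D3T, an overlapping spread with a change of 0.86 ± 0.44 (adjusted p = 0.224). A second one had all D3T arrays (87.6 to 116.2) above all vehicle arrays (48.7 to 81.2), at 0.66 ± 0.30 (adjusted p = 0.177), and the other 3 were too dim to be tested. Myh11, the smooth muscle heavy chain, gave -0.08 ± 0.38 on its tested probe set, and the skeletal heavy chain Myh1 gave -0.16 ± 0.23. No probe set of the cardiac heavy chains Myh6 and Myh7 was bright enough to be tested. The markers of striated muscle chosen as a check summed to 799.2 to 1365 in vehicle and 1330 to 1814 after D3T over 6 tested genes, of which 0 passed in limma and 2 had an unadjusted p under 0.05. Of these 6, 5 are members of the cytoskeletal set itself.

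Tropomyosins, which run along actin filaments, gave 0 calls in limma from 8 tested probe sets, with 1 unadjusted p under 0.05. The changes of 7 of these were positive, and the range over all 8 was -0.30 to 0.46. Tpm4, a non-muscle form, had both probe sets higher on average: 186.0 ± 19.6 (SD, n = 4) against 228.2 ± 27.9, and 219.9 ± 43.6 against 293.7 ± 35.3. Its log2 fold changes were 0.29 (interval -0.10 to 0.69, adjusted p = 0.300) and 0.43 (0.01 to 0.85, adjusted p = 0.159). The brightest probe set of Tpm3 gave 0.02, with an interval from -0.27 to 0.30. Tpm1 had 3 tested probe sets at 0.22, 0.31 and 0.46, and that at 0.31 scattered from 941.8 to 2087 in vehicle and from 1196 to 3276 after D3T.

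Among the tubulins, a probe set of Tubb5 rose. Tubb5 encodes a widely expressed beta-tubulin, and this probe set read 950.0, 1229, 1059 and 1095 in vehicle and 1470, 1460, 1948 and 1967 after D3T. All 4 D3T arrays lay above the vehicle arrays. The rise was 1.57-fold (0.65 ± 0.15 on the log2 scale, interval 0.33 to 0.97, limma adjusted p = 0.0201). The call was lost without vehicle replicate 1 (adjusted p = 0.0601), without vehicle replicate 3 (0.0605) and without D3T replicate 4 (0.0563), and with no filter (0.0533), no intensity trend (0.0522), the Gapdh ratio as covariate (0.0861) or the beta-actin ratio (0.306). The fits kept the direction, with log2 fold changes from 0.58 to 0.72 over the 8 fits without 1 array. The other probe set of Tubb5 was dim and scattered, from 31.4 to 149.2 in vehicle and from 66.4 to 157.2 after D3T, and gave 0.10 with a wide interval from -0.99 to 1.20. Of 6 tested markers of proliferating cells, 3 passed, where 9.56% of all genes did when each was read by its brightest probe set: Top2a (1.89-fold) and Mcm6 (1.72-fold) rose and Ccnd1 fell by 1.12 on the log2 scale. Cdk1 (1.71, adjusted p = 0.0607), Ccnb1 (0.49) and Pcna (-0.40) did not pass. The changes of 4 of the 6 were positive, with a median of 0.64. The summed signal of the 6 was 2068 to 2293 in vehicle and 1538 to 2446 after D3T. Ccnd1, the brightest, made up much of that sum, with 1230 ± 41.6 (SD, n = 4) in vehicle and 578.6 ± 130.7 after D3T. The part of these markers in the rise of Tubb5 was not tested.

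The alpha-tubulins with a probe set of their own, partners of Tubb5 in the microtubule, did not pass. Tuba1b read 2636 ± 343.4 (SD, n = 4) in vehicle and 3099 ± 643.0 after D3T, a log2 fold change of 0.22 with an interval from -0.13 to 0.57. The beta-tubulin Tubb2b gave -0.02 (interval -0.69 to 0.65) on its tested probe set. Tuba4a read 65.8, 50.6, 207.1 and 417.2 in vehicle and 48.5, 39.3, 20.3 and 22.6 after D3T, with D3T replicate 3 at the floor. All its D3T arrays lay below all vehicle arrays, but the vehicle arrays themselves ranged widely. The change of Tuba4a was the lowest of all members at -2.09 ± 0.66 and did not pass (adjusted p = 0.0659). Its D3T arrays all lay below 60.7, the geometric mean at the filter, so the vehicle arrays brought Tuba4a into the test. It passed in 1 of 6 fits without 1 array, that without vehicle replicate 2 (-2.55, adjusted p = 0.0307). In the rest the adjusted p ran from 0.0728 to 0.137. Without vehicle replicate 3 or 4 Tuba4a was too dim to be tested. Among the probe sets with several symbols, 17 were tested and 3 passed (17.6%, beside 10.7% of all probe sets), named here after their values were seen. That of Tuba1b and Tuba1a was 1.87-fold lower (limma adjusted p = 0.0471, passing in 2 of 8 fits without 1 array), while 2 others that share Tuba1b gave 0.05 and -0.23 and did not pass. One of a pair for Cfl1 and a copy of it was 1.5-fold higher (adjusted p = 0.0347, passing in 2 of 8 such fits), and the other gave 0.36 and did not pass. One of a pair listed under a repeated Myh9 symbol, a non-muscle myosin heavy chain, was 2.89-fold higher (adjusted p = 0.0243, passing in 4 of 8 such fits), while the other of that pair gave 0.02.

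**Figure D2:**
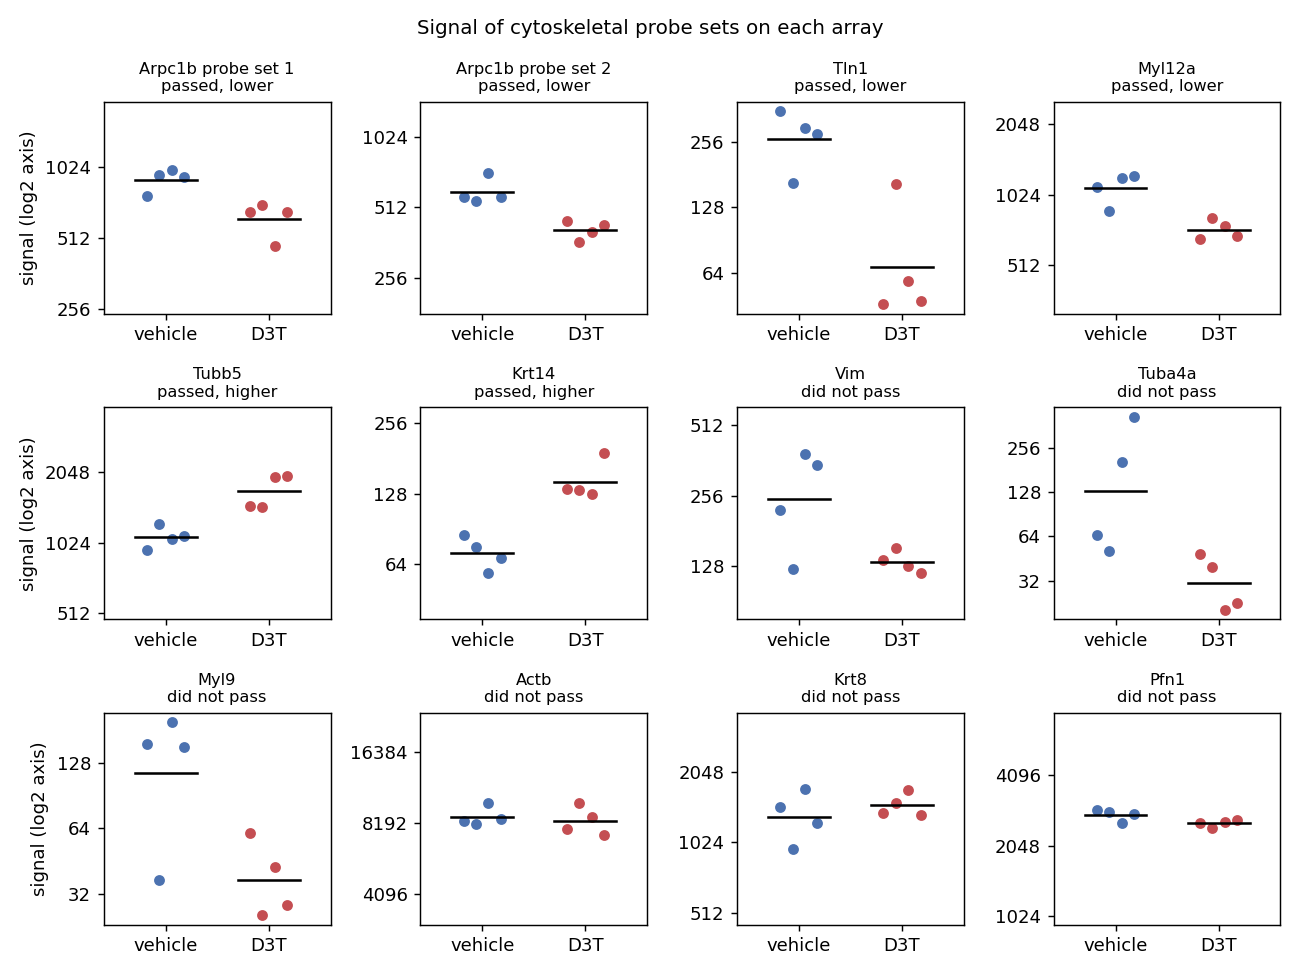
Signal of 12 probe sets for 11 genes on each array (vertical axes, log2 scaled), with vehicle in blue and D3T in red and a bar at the geometric mean of each group. The points of Arpc1b, Tln1, Myl12a, Tubb5, Krt14 and Tuba4a do not overlap between groups, whereas vehicle replicate 2 (124.9 for Vim and 37.2 for Myl9) lies among the D3T points.

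The keratin pair of hepatocytes did not pass. Krt8 read 1439, 960.1, 1729 and 1236 in vehicle and 1361, 1505, 1703 and 1340 after D3T, with overlapping groups and a log2 fold change of 0.17 (interval -0.22 to 0.56). The probe sets of Krt18 gave -0.32 (interval -0.67 to 0.04) and -0.03 (-0.39 to 0.33). Krt10, a keratin of the epidermis, gave -0.11 (-0.63 to 0.40) on its tested probe set. Krt19, the bile duct keratin, read 88.3, 63.9, 97.1 and 85.0 in vehicle and 93.2, 97.4, 142.7 and 21.6 after D3T. For Krt19 D3T replicate 4 alone was low, and the change of -0.18 ± 0.53 became 0.40 without it.

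Krt14, a keratin of basal epithelial cells, rose from a low level. It read 85.0, 75.9, 58.5 and 68.1 in vehicle and 133.2, 132.8, 127.3 and 190.1 after D3T, with no overlap. The rise was 2.02-fold (1.02 ± 0.26 on the log2 scale, interval 0.43 to 1.60, limma adjusted p = 0.0352). It passed in 1 of 8 fits without 1 array, that without vehicle replicate 2 (adjusted p = 0.0418). In the remaining fits the adjusted p ran from 0.0538 without D3T replicate 3 to 0.108 without D3T replicate 4, and the log2 fold change from 0.88 to 1.10. With no filter the adjusted p of Krt14 was 0.051. The probe sets of Krt1, Krt4 and Krt5, keratins of stratified epithelia, were too dim to be tested. In a fit with no filter Krt4 passed as higher (0.57, adjusted p = 0.0206), from 20.3 to 24.8 in vehicle against 28.3 to 35.0 after D3T, which is close to the floor. It was the only one of the 40 untested members with non-overlapping groups, beside 3.92% of all 3496 untested probe sets.

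Vimentin (Vim), the intermediate filament of non-epithelial cells, read 222.7, 124.9, 386.4 and 347.6 in vehicle and 135.8, 153.0, 128.7 and 120.1 after D3T. Vehicle replicate 2 lay with the D3T arrays and the other 3 vehicle arrays lay above all of them. The change of -0.88 ± 0.33 did not pass (limma adjusted p = 0.107). Vim passed in 1 of 8 fits without 1 array, that without vehicle replicate 2 (-1.21, adjusted p = 0.0146). In the rest the adjusted p ran from 0.116 to 0.26, and the smallest fall was -0.67.

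**Figure D3:**
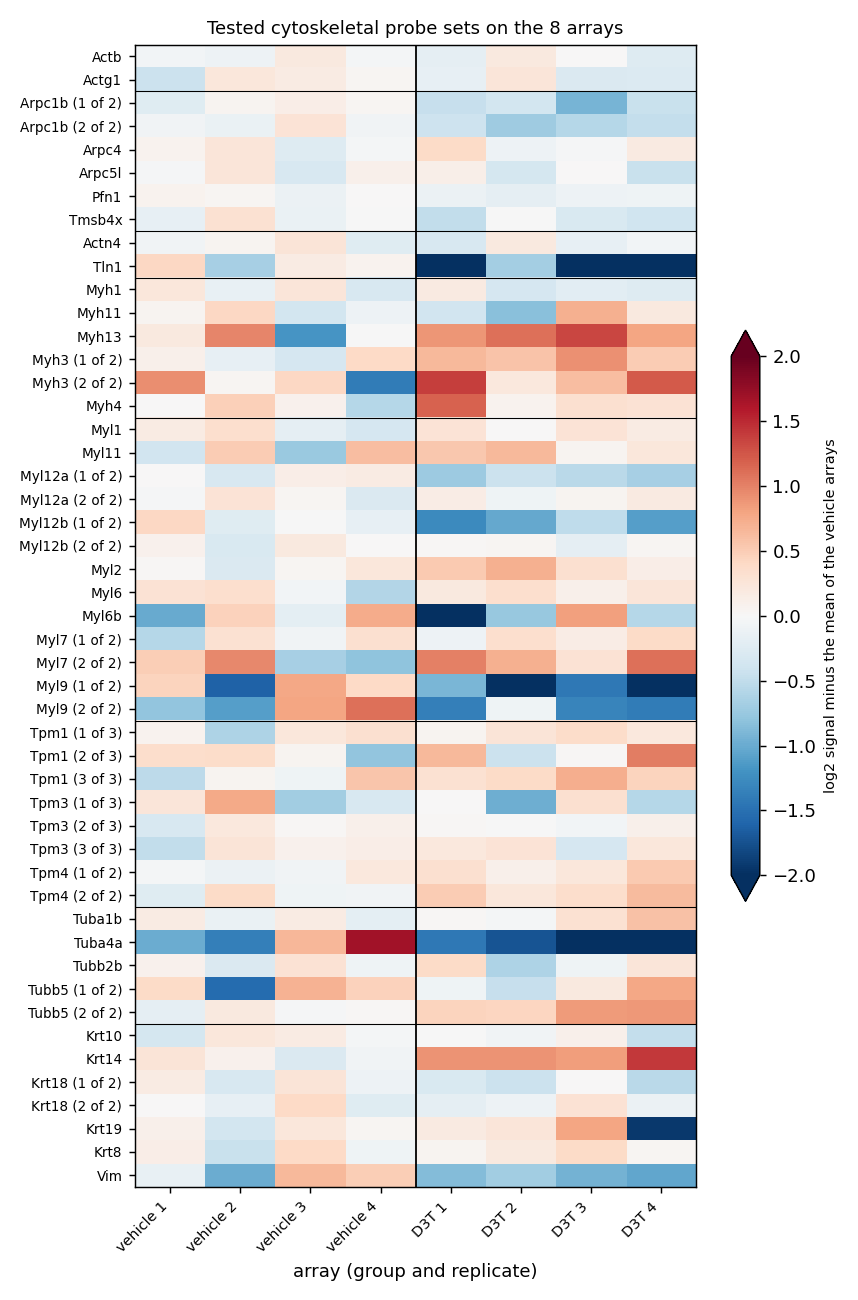
Log2 signal of the 49 tested cytoskeletal probe sets on the 8 arrays, each minus the mean of its 4 vehicle arrays (colour; values past 2 in either direction share the end colour). Rows are ordered by role and gene. The rows of Tln1, Myl9, Tuba4a and Vim are mostly blue over the D3T arrays, and vehicle replicate 2 is also blue in these rows. Vehicle replicate 1 is blue as well for Tuba4a (65.8) and for 1 probe set of Myl9 (89.9).

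Because liver RNA mixes cell types, fewer cells of a type and less RNA per cell cannot be told apart. Markers of each cell type were counted beside the 9.56% of all genes that passed. Of 5 endothelial markers tested, Lyve1 (1.74-fold) and Fcgr2b (1.88-fold) were lower and 3 did not pass, Pecam1 (-0.13), Kdr (-0.32) and Flt1 (0.03). Their summed signal was 1325 to 1671 in vehicle and 925.7 to 1158 after D3T. Fcgr2b and Lyve1, the 2 that passed, made up much of that sum. Fcgr2b averaged 696.0 in vehicle and 383.0 after D3T, and Lyve1 298.7 and 175.6. Of 6 markers tested of Kupffer cells, the resident macrophages of liver, C1qb (1.73-fold) and Aif1 (2.13-fold) were lower, Cd14 (1.74-fold) was higher and 3 did not pass, Clec4f (-0.48), Lyz2 (-0.74) and C1qc (0.08). They had a summed signal of 5485 to 6177 in vehicle and 4250 to 5243 after D3T. None of the measured probe sets of these endothelial and Kupffer lists was at the floor on all arrays. Leukocyte markers summed to 385.0 to 580.8 in vehicle and 571.7 to 710.1 after D3T over 3 tested genes, and none passed in limma (2 with an unadjusted p under 0.05). Of 9 stellate cell and fibroblast markers 1 passed, Col3a1 (1.86-fold lower), and 4 had an unadjusted p under 0.05. Their median change was -0.21, with 4 positive. The sums overlapped, from 7488 to 10453 in vehicle and from 8275 to 10801 after D3T. Sparc, the brightest, made up much of them, with 5427 ± 950.6 (SD, n = 4) in vehicle and 7242 ± 1031 after D3T. The 3 tested smooth muscle markers summed to 231.6 to 594.7 in vehicle and 251.7 to 302.0 after D3T and none passed (0 with an unadjusted p under 0.05), and 2 of the 3 are members. Bile duct markers summed to 264.8 to 422.9 and 374.4 to 476.1 over 3 tested genes, of which 0 passed and 1 had an unadjusted p under 0.05. Of 9 hepatocyte markers 1 passed, Fgb (1.74-fold lower), and 5 had an unadjusted p under 0.05. The hepatocyte sums overlapped, from 178162 to 264748 in vehicle and from 223872 to 306175 after D3T. The 2 erythroid markers summed to 10707 to 15142 in vehicle and 7124 to 9940 after D3T, and 0 passed in limma (1 with an unadjusted p under 0.05). Hbb made up most of that sum, with 12134 ± 2271 (SD, n = 4) in vehicle and 8478 ± 1209 after D3T (limma adjusted p = 0.06). The other, Alas2, gave -0.13. The part of these markers in the falls of Arpc1b, Tln1 and Myl12a was not tested.

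Of 11 genes with more than 1 tested probe set, Myl12a and Tpm3 had probe sets that differed in sign. Arpc1b was the only gene of these with more than 1 probe set past the threshold. For 13 of the 49 members (26.5%) the 95% interval lay within 1.5-fold in either direction, beside 21.3% of all probe sets tested.

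**Figure D4:**
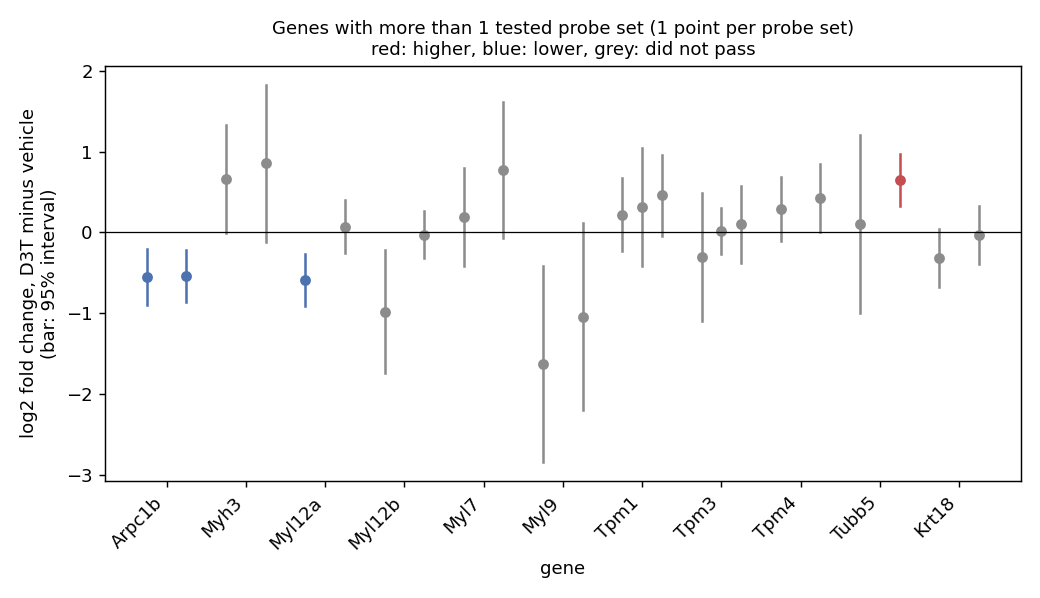
Log2 fold change (D3T minus vehicle, vertical axis) of each tested probe set of the 11 genes with more than 1, with 95% limma intervals as bars. Both points of Arpc1b lie below 0 and are coloured as passing, whereas only 1 of 2 is coloured for Myl12a and for Tubb5.

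The 40 members that were not tested had geometric mean signals of at most 56.0 (a probe set of Acta2), and the tested member nearest to the filter was Tuba4a at 63.1. Of the 40, 11 lay at the floor on all 8 arrays and 3 lay above it on all 8. They left 18 genes with no tested probe set, among them the cardiac heavy chains, Acta1, Acta2, Actg2, Ezr, Msn, Krt1, Krt4 and Krt5.

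In lists of neighbouring genes, each read by its brightest probe set, few genes passed. Over all genes read that way 9.56% passed, 3.71% as higher and 5.84% as lower. In a list of proteins that control, cap or crosslink actin, 23 genes were tested, 1 fell and 22 did not pass, with a median of 0.05 on the log2 scale. The one that fell was Capza2, a capping protein subunit, from 592.1 ± 54.5 (SD, n = 4) to 339.5 ± 109.6 (1.81-fold, limma adjusted p = 0.0331), which passed in 2 of 8 fits without 1 array. In a list of adhesion proteins 2 of 13 fell and none rose, with a median of -0.27. Itga1, the integrin alpha 1 chain, was 1.56-fold lower (adjusted p = 0.0404, passing in 2 of 8 fits without 1 array). Sdc1, the heparan sulfate proteoglycan syndecan 1 of the hepatocyte surface, went from 693.0 ± 48.3 to 453.0 ± 55.9, 1.54-fold lower (adjusted p = 0.0207, passing in 4 of 8 such fits). Of 11 microtubule-associated proteins and motors 0 passed in limma and 2 had an unadjusted p under 0.05. The brightest of these, the dynein light intermediate chain gene Dync1li2, gave -0.46 ± 0.15 (adjusted p = 0.0699). Of 5 other intermediate filament and lamin genes 0 passed and 0 had an unadjusted p under 0.05, and the brightest, the cytolinker plectin (Plec), gave 0.42 ± 0.19. Of 7 tested genes among serum response factor and its known targets 0 passed and 2 had an unadjusted p under 0.05, and the brightest, Tpm1, is a member given above.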

How the data were processed

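Total RNA from snap-frozen liver of 8 rats was read on Affymetrix rat expression arrays, 1 per rat. The authors' deposited values are signal intensities per probe set, made with MAS5 per the submitters' processing notes; its version, scaling target and filters: not given in the sources used here. Arrays already agreed in their 2% trimmed means (500.8 to 501). Each was rescaled to a 2% trimmed mean of 500, floored at the 20th percentile of all values, and log2 was taken. The 60% of non-control probe sets with the highest mean were tested, blind to group, with limma 3.58.1 in R 4.3.3 (intensity trend, Benjamini-Hochberg adjustment over all 5244). A fold change compares geometric means of the floored signals and is understated near the floor. Means and SDs are of linear signals over 4 arrays.

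Symbols came from the platform annotation, which gave 1 symbol for 7006 non-control probe sets, several for 308 and none for 1426; 52 of the 54 gene identifiers were in RefSeq's table and none had a newer symbol. Of the member probe sets, 43 have names that mark shared sequence, those of Myl12a, Tubb5 and 1 of 2 for Arpc1b included, so their signal may not come from 1 gene alone. Members, lists and tests were chosen with earlier results of these data known. The members described in full were those past the threshold, those with several probe sets and the brightest of each role. In each list of neighbouring genes up to 3 past the threshold, or else the brightest, were named; Alb and the genes named from marker lists were chosen after their values were seen. Scripts were tested on simulated data. Correlations of same-numbered arrays' deviations from their group means ran from -0.198 to 0.0633, so the numbers were not taken as pairs.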

Additional observations from a re-analysis of the deposited data

Results flagged for a closer look

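Among 98 groups of 4 arrays (49 tested members in each group), 7 held an array whose gap to the nearest other array exceeded Dixon's 95% critical value (7.14%), where chance gives about 5%. Vehicle replicate 2 was low for one probe set of Myl9 (37.2, the others from 150.4 to 195.9) and for the dim probe set of Tubb5 (31.4, the others from 119.7 to 149.2). Vehicle replicate 3 was high for a probe set of Arpc1b (715.0, the others from 542.3 to 567.9). D3T replicate 4 was high for Krt14 (190.1, the others from 127.3 to 133.2). D3T replicate 3 was low for a probe set of Myl12b (1376, the others from 1584 to 1603) and of Tpm3 (207.6, the others from 302.8 to 317.5). D3T replicate 2 was high for the other probe set of Myl9 (147.1, the others from 59.1 to 62.1).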

How the results depend on the processing

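Over 924 refits of the 49 tested members, 814 kept direction and side of the threshold, 60 lost a call, 4 gained one and 46 changed sign. Rescaling, median centring, log2 of the signal plus 16 and the brightest 30% of probe sets changed no member's call among those they tested; the last tested 24 members and so gave 1 higher. Of all probe sets, 560 passed, against 309 with no filter, 333 with no intensity trend, 290 with the replicate block, 35 with the beta-actin 3'/5' ratio as covariate, 177 with the Gapdh 3'/5' ratio, 261 without shared-sequence probe sets and 240 to 695 without 1 array. Members higher (2) were 1 with no filter (Krt4, untested otherwise; 0 of the 2 kept), 1 with no trend or no shared-sequence probe sets (Krt14 kept), 1 with the replicate block (Tubb5 kept), 0 with the beta-actin or Gapdh ratio, and 0 to 2 without 1 array. Members lower (4) were 1 with quantile normalization or no shared-sequence probe sets (Tln1 kept), 1 with no filter or the Gapdh ratio (in each a different probe set of Arpc1b), 2 with no trend (Tln1 kept, Myl12b gained), 0 with the replicate block or the beta-actin ratio, and 0 to 6 without 1 array. With 0 of 49 passing under the beta-actin ratio in limma, 5 had an unadjusted p under 0.05. Fewer samples or probe sets enter some of these fits; otherwise the cause was not tested.

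Signs changed only for 15 probe sets that had not passed. With the beta-actin ratio the log2 fold change was 0.03 for Actb, 0.16 for Arpc5l, 0.09 for Krt10, 0.02 for Krt18, 1.30 for Krt19, 0.19 for Myh11, -0.08 for Myl12a, -0.39 for Tpm1, 0.28, -0.11 and -0.27 for Tpm3, -0.02 for Tuba1b and -0.32 for Tubb5. With the Gapdh ratio it was 0.13 for Krt18, 0.37 for Krt19, 0.27 for Myh11 and -0.12 and -0.27 for Tpm3. Quantile normalization gave 0.04 for Krt18 and 0.06 for Myl12b, and a floor at the 40th percentile 0.21 for Krt19, 0.01 for Myh11 and -0.16 for Tubb5. Without 1 array the range was -0.14 to 0.01 for Actb, -0.23 to 0.01 for Krt10, -0.13 to 0.10 for Krt18, -0.51 to 0.40 for Krt19, -0.34 to 0.17 for Myh11, -0.02 to 0.16 for Myl12a, -0.13 to 0.04 for Myl12b, -0.09 to 0.09 and -0.06 to 0.24 for Tpm3, -0.15 to 0.18 for Tubb2b and -0.41 to 0.34 for Tubb5. The replicate numbers did not pair the arrays, and 1 of 4 vehicle arrays correlated best with its own number. Signals near the floor limit what the 40 untested members can show.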
